A study of Drosophila melanogaster with 6 samples.

Results

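The Tweedle, Lcp, Ccp84A and Edg genes, together with Pcp and Acp65Aa, encode structural proteins of the insect cuticle. Members were taken by symbol (a name starting with Twdl, Lcp, Ccp84A or Edg, or the name Pcp or Acp65Aa) from the probe sets that the platform annotation gives to a single gene, and the probe set with the highest mean signal stood for each gene. This gave 39 of 11982 measured genes: 24 Tweedle genes, 6 genes of the Lcp65A cluster, Lcp9, 3 Ccp84A genes, 3 Edg genes, Pcp and Acp65Aa. RefSeq lists 55 genes with such symbols. Of the other 16, 4 share 2 probe sets with another gene and 12, of which 3 are pseudogenes, had no probe set that the annotation names. The 2 shared probe sets lay in the low range described below on all 6 arrays and were not called (changes of 0.13 and -0.06, adjusted p = 0.628 and 0.820 in limma), and the 12 were not analysed here.

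RNA came from whole Drosophila melanogaster prepupae at 0 h, picked at once after the puparium formed. Animals homozygous for the sox14L1 allele in the w1118 background (3 arrays) were compared with w1118 animals (3 arrays), each array holding RNA of 10 pooled prepupae raised at 25 °C. Both groups share the w1118 background. The labels name 1 mutant allele. They do not state that replicates were grown apart, and p-values therefore reflect only the variation among these arrays, part of which may be technical.

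The cuticle is secreted by the epidermis and consists of chitin fibres embedded in proteins. At the end of larval life a pulse of the steroid ecdysone turns the cuticle of the last larval stage into the hard, tanned puparium, and later pulses in the prepupa and pupa lead to a pupal and then an adult cuticle, each with its own set of proteins. The Lcp, Ccp84A and Pcp proteins carry the Rebers-Riddiford domain, which binds chitin, and the Tweedle proteins form a separate insect family. Dominant mutations of TwdlD, or of its relative Tb, give short and squat larvae and pupae. The Edg genes were named for their response to ecdysone, and Edg84A is a known target of the nuclear receptor Ftz-f1 in the middle of the prepupal period.

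The Sox14 probe set gave 10.58 ± 0.21 in mutants and 11.57 ± 0.16 in controls (log2 signal, mean ± SD, n = 3 each), a change of -0.99 ± 0.13 (SE, adjusted p = 0.00101). On the first mutant array the control probe sets differed from those of the other arrays. Mean 18S rRNA signal was 12.18 there and 7.56 to 7.94 elsewhere, and the actin 3' probe set exceeded the 5' probe set by 1.77 there and by 0.54 to 0.88 elsewhere. In a whole animal, fewer cells of a type and less RNA per cell cannot be told apart. The summed signal of 69 epidermis markers (Cpr genes, Gasp, obst-A and grh) spanned 15.75 to 15.83 in the mutant and 15.73 to 15.88 in the control on the log2 scale. Of these 69, 66 are Cpr cuticle genes, which are read again below, and 31 lay in the low range described below on all arrays. The sum therefore cannot gauge the amount of epidermis apart from the cuticle genes. Among the 69, 10 rose and 6 fell (23.2%, against 24.7% of all measured genes). Among markers of other tissues, all 3 measured muscle markers rose, with changes from 1.19 to 2.02. Of 6 midgut markers 5 rose and 1 fell, with changes from -0.60 to 6.66. In both tissues the share called was 100%, against 24.7% of all measured genes. Of 7 salivary gland markers 1 rose. All 7 read lowest of the mutant arrays on the second. Their summed signal spanned 14.45 to 16.55 in the mutant and 16.15 to 16.45 in the control, a wide spread that limits the calls. Of 3 fat body markers 1 fell. Of 4 neuron markers 1 rose and 1 fell, and of 4 hemocyte markers 2 rose. In these 4 tissues together, with muscle and midgut left out, 4 of 18 markers rose and 2 fell (33.3%, against 24.7% of all measured genes). The part of these tissues in the results below was not tested.

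Most of these cuticle genes showed no detected difference between the genotypes at the onset of metamorphosis. With limma's moderated test and Benjamini-Hochberg adjustment over all 18769 probe sets (2-sided, threshold 0.05), 3 of 39 were higher in the mutant, namely TwdlW, Lcp65Ac and TwdlD, and 1 was lower, Lcp9. That is 10.3%, against 24.7% of all measured genes. By direction, the background was 11.3% of all genes higher and 13.4% lower. Without the first mutant array the 39 genes gave 2 higher, TwdlW and Lcp65Ac, and 1 lower, Lcp9, where 19.1% of all genes were called. With each array centred on its median, 3 were higher and 2 lower, TwdlX being the second, where 26.2% of all genes were called. At an unadjusted p under 0.05, 6 of the 39 were higher and 3 lower, against 2045 and 2556 of all 11982 genes. The 3 mutant arrays did not overlap the 3 control arrays for 7 higher and 5 lower members, or 30.8%, against 42.8% of all genes. Changes are given as mutant minus control in log2 units. Their median was -0.01 over the 39 and -0.03 over all genes, and the median size of a change in either direction was 0.12 over the 39 and 0.20 over all genes.

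Many of the probe sets read at the bottom of the arrays' range. A low range was set as the lower 95% of 98 Drosophila-array control probe sets (named AFFX-Dm), which ended at 5.73 to 5.99 depending on the array. Of the 39 members, 19 lay in it on all 6 arrays, 17 on none and 3 (TwdlW, TwdlD and TwdlP) on some. RMA compresses changes in that range, and of all genes 5.31% were called among those in it on all arrays and 28.2% among those above it on all arrays. Of the 17 members above it on all arrays, 2 were called (11.8%). None of the 19 dim members was called by limma (1 at an unadjusted p under 0.05), and their changes lay between -0.22 and 0.12, so that a change of these transcripts may have gone undetected. Signals of different probe sets do not compare as amounts of RNA. Of the 15 uncalled members above the low range on all arrays, 14 had a 95% interval of the change inside a 2-fold difference in either direction, and the exception was Pcp. The same held for 6373 of the 6497 uncalled genes above the low range among all genes.

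**Figure D1:**
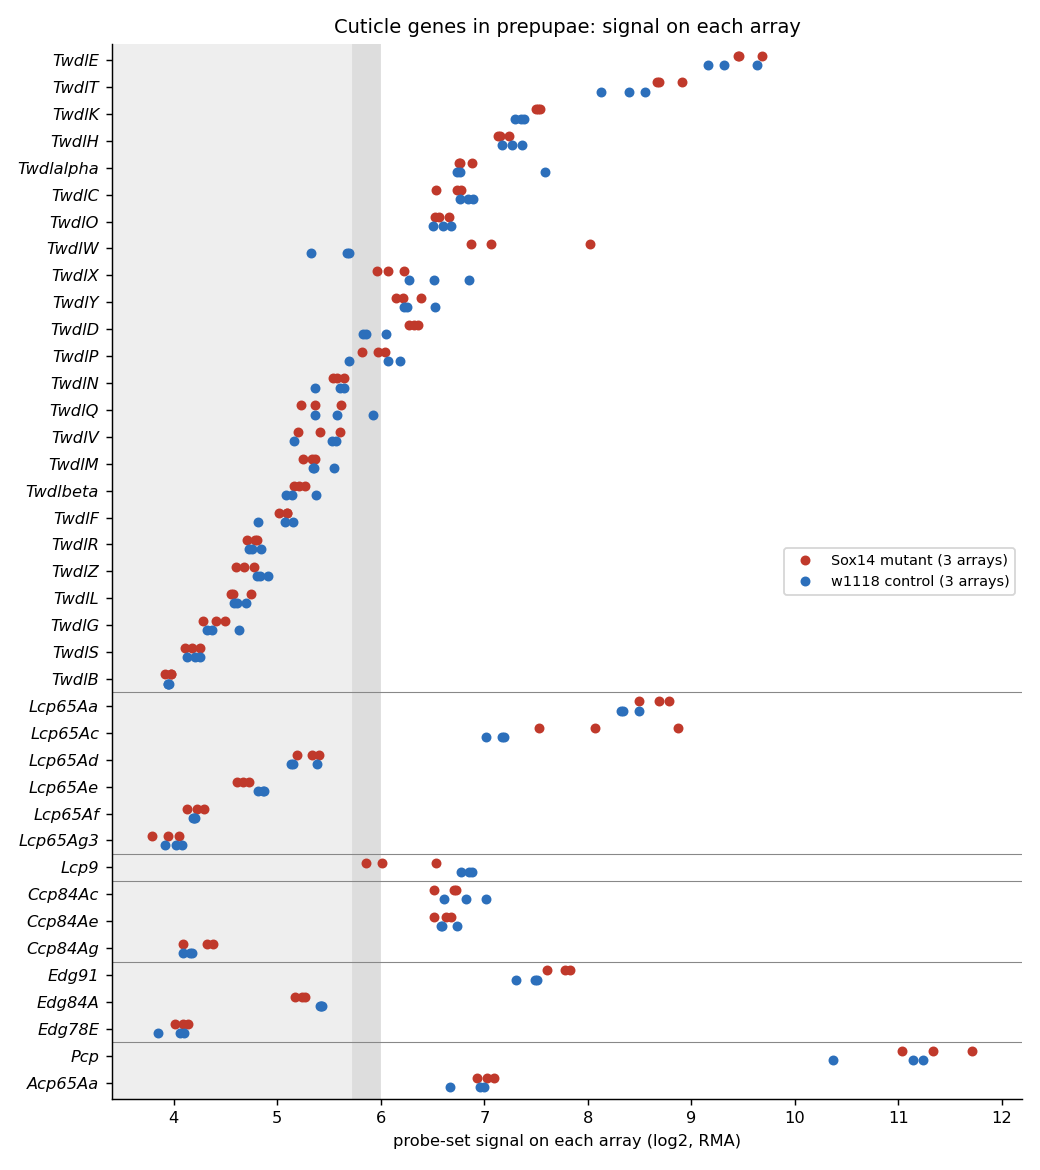
Signal (log2, RMA) of the 39 cuticle genes on each of the 6 arrays, red for the 3 Sox14 mutant arrays and blue for the 3 w1118 arrays, sorted by mean within each family. The light grey area lies in the low range on every array and the darker band, from 5.73 to 5.99, in that of some. The red and blue points stand clear of each other for TwdlW and Lcp65Ac, and 19 of the 39 rows lie wholly in the low range of all arrays.

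The Tweedle family had 24 measured genes, of which 2 rose, none fell and 22 were not called (3 and 1 at an unadjusted p under 0.05). The share called was 8.33%, against 24.7% of all genes, and 12 of the 24 lay in the low range on all arrays. Its median change was -0.01, the changes ran from -0.46 to 1.75, and 15 of 24 were below 0, against 6532 of all 11982 genes. TwdlE had the highest signal of the family, with 9.53 ± 0.13 in the mutant and 9.37 ± 0.24 in the control, and TwdlB the lowest, with 3.92 to 3.97 in the mutant and 3.94 to 3.95 in the control. Neither was called (adjusted p = 0.479 and 0.964).

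TwdlW showed the largest change of the 39. It read 7.06, 8.02 and 6.87 on the mutant arrays, against 5.69, 5.68 and 5.33 on the control arrays. All mutant values were above all control values, and the second mutant array was the highest of the 6. The change was 1.75 ± 0.27 (adjusted p = 0.00235). All 3 control arrays lay in the low range, so the size is a bound: with each control array set no lower than the end of its low range, TwdlW was at least 2.55-fold higher in the mutant. The measured change of TwdlW was 1.88 without the first mutant array and 1.40 without the second, and TwdlW was called with any of the 6 arrays left out.

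TwdlD, in which dominant mutations shorten the body, changed less. It read 6.32, 6.27 and 6.36 on the mutant arrays, against 6.05, 5.86 and 5.83 on the control arrays. The groups did not overlap, and the mutant arrays lay closer together than the control arrays. The rise was 0.41 ± 0.10 (adjusted p = 0.0186), with 2 of the 3 control arrays in the low range, which makes its size uncertain. The call was lost with any of 5 arrays left out (adjusted p = 0.0502 to 0.0626) and was kept only without the first control array (0.0174). TwdlD ends a run of 11 measured Tweedle genes that follow each other on chromosome arm 3R, and the other 10 (TwdlM, TwdlP, TwdlB, TwdlL, TwdlO, TwdlK, TwdlN, TwdlH, TwdlR and TwdlS) were not called, with changes from -0.10 to 0.17. Of those 10, 6 lay in the low range on all arrays. Tb, itself a Tweedle gene under another name and the second measured gene beyond TwdlD, read 5.66 in mutants and 5.68 in controls and was not called (adjusted p = 0.899). It lay in the low range on 5 of the 6 arrays.

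TwdlT and TwdlX, named here after their values were seen, came closest to the threshold without passing it. TwdlT read 8.67, 8.92 and 8.69 on the mutant arrays and 8.40, 8.13 and 8.55 on the control arrays, a difference of 0.40 ± 0.13 (adjusted p = 0.0666). TwdlX read 5.96, 6.07 and 6.22 on the mutant arrays and 6.27, 6.85 and 6.51 on the control arrays, a difference of -0.46 ± 0.15 (adjusted p = 0.0666). For both, the genotypes did not overlap. TwdlT was called with array weights (0.0239) and without the third control array (0.0447). TwdlX was called with median centring (0.0356) and without the first control array (0.0272).

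The 4 Tweedle genes on the X chromosome, TwdlX, TwdlY, TwdlZ and Twdlalpha, all read lower in the mutant, with a median difference of -0.20, and limma called none of them (1 at an unadjusted p under 0.05). Of all 11982 genes, 6532 had a change below 0, and TwdlZ lay in the low range on all 6 arrays. In RefSeq all 4 of these Tweedle genes lie within the gene goe, which read 9.21 in mutants and 9.20 in controls (adjusted p = 0.985). For Twdlalpha the difference of -0.23 came with 7.59 on the second control array, while the other 5 arrays lay between 6.73 and 6.88.

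**Figure D2:**
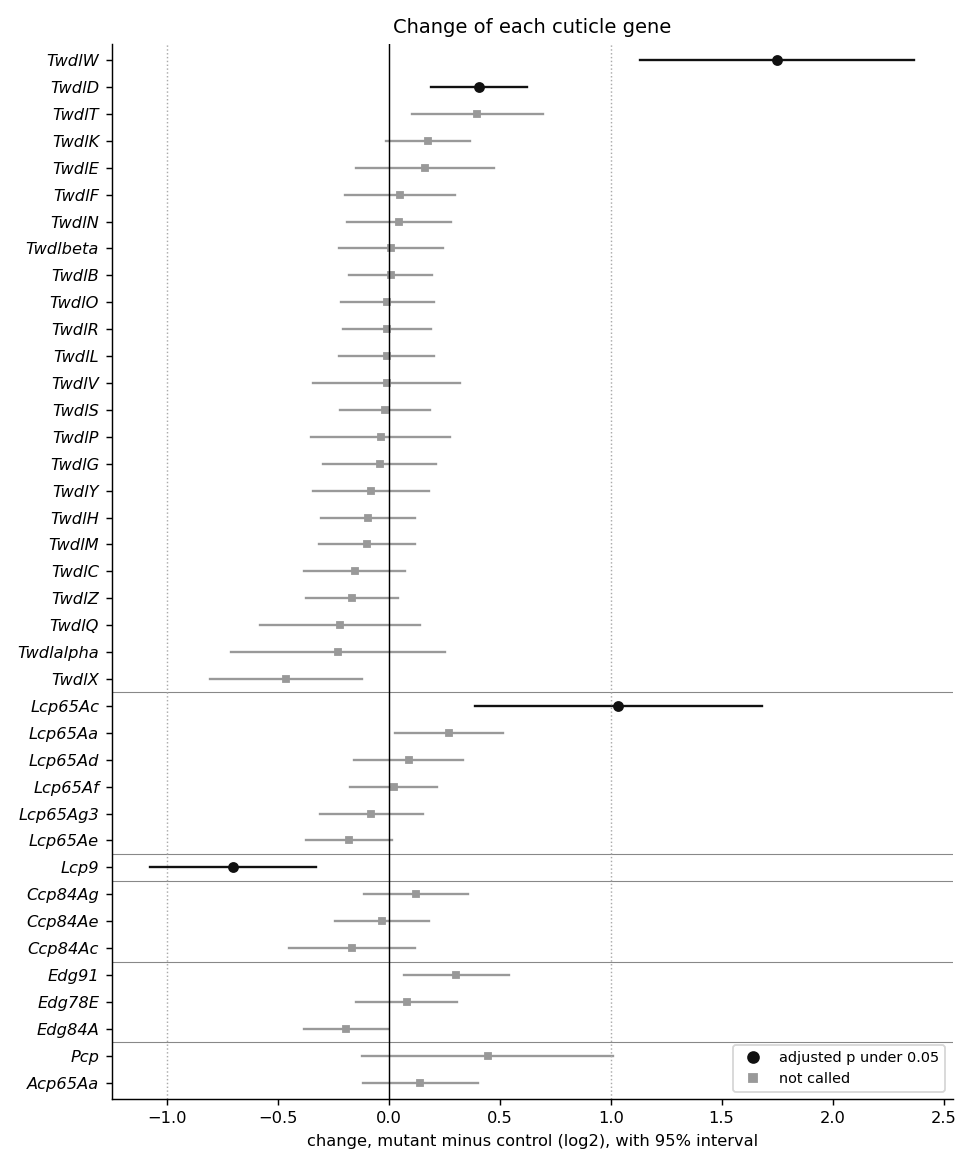
Change of each of the 39 cuticle genes (horizontal axis, mutant minus control, log2) with its 95% interval from limma, by family. Black circles mark the 4 genes with an adjusted p under 0.05 and grey squares the other 35, and dotted lines mark a 2-fold difference. Most intervals cross 0, and that of TwdlW lies wholly above the right-hand dotted line.

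Of the 6 measured genes of the Lcp65A cluster, whose members encode larval cuticle proteins, 1 rose, none fell and 5 were not called (2 and 0 at an unadjusted p under 0.05). The share called was 16.7%, against 24.7% of all genes. Lcp65Ac read 8.87, 7.53 and 8.07 on the mutant arrays, against 7.17, 7.01 and 7.19 on the control arrays. The genotypes did not overlap, and the mutant arrays spread over more than 1 unit of log2, with the first the highest. The change was 1.03 ± 0.28 (adjusted p = 0.0349), about 2.05-fold. Without the first mutant array, the one whose control probe sets differed, it was 0.68 (adjusted p = 0.0328), so that array moved the value by over 1.5 times. The call was lost without the third mutant array or without any of the 3 control arrays (adjusted p = 0.0686 to 0.0948), and with array weights (0.0774).

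Lcp65Aa, next to Lcp65Ac on 3L, had the highest signal of the cluster. It read 8.66 ± 0.15 in mutants and 8.39 ± 0.10 in controls, without overlap, and did not pass the test (0.27 ± 0.11, adjusted p = 0.123). A second, dimmer probe set of Lcp65Aa lay in the low range and read the other way (-0.23 ± 0.11, adjusted p = 0.194). Lcp65Ag3 had the lowest signal, with 3.93 ± 0.13 in the mutant and 4.01 ± 0.08 in the control. Lcp65Ad, Lcp65Ae, Lcp65Af and Lcp65Ag3 were in the low range on all arrays, with changes from -0.18 to 0.09.

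Lcp9, which encodes a cuticle protein of the last larval stage, was the member that fell. It read 6.53, 5.85 and 6.01 on the mutant arrays, against 6.85, 6.77 and 6.88 on the control arrays. The groups did not overlap, the mutant arrays spread more widely than the control arrays, and the first mutant array was the closest to them. Lcp9 fell by 0.70 on the log2 scale (SE 0.16, adjusted p = 0.0185), or about 1.63-fold, and without the first mutant array the change was -0.90 (adjusted p = 0.00111). The call was lost without the second or the third mutant array, or without the first or the third control array (adjusted p = 0.0526 to 0.0663). Lcp9 lies on 2R, the chromosome arm of Sox14, so a strain difference linked to the allele and an effect of Sox14 cannot be told apart.

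**Figure D3:**
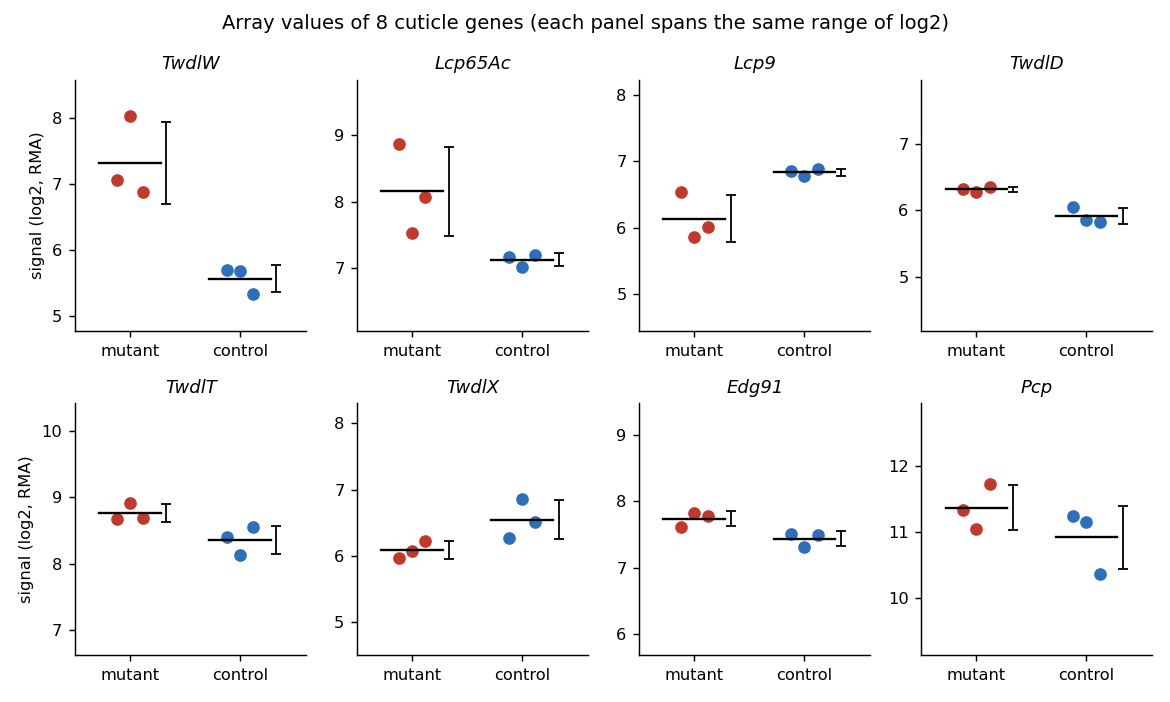
Signal (log2, RMA) on each array for the 4 called genes, for TwdlT, TwdlX and Edg91, the nearest to the threshold, and for Pcp, the brightest probe set. Points are arrays, horizontal lines are group means, and bars beside them show the SD (n = 3 each); every panel spans the same range. The gap between mutant and control is widest for TwdlW, and the mutant arrays of Lcp65Ac spread from 7.53 to 8.87.

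The 3 measured Ccp84A genes, members of a cuticle gene cluster on 3R, gave no call in limma and none at an unadjusted p under 0.05. Of all genes, 24.7% were called in limma. Ccp84Ac had the highest signal, with 6.65 ± 0.12 in the mutant and 6.81 ± 0.21 in the control (-0.17 ± 0.12, adjusted p = 0.425). Ccp84Ae read 6.61 ± 0.08 in mutants and 6.64 ± 0.09 in controls, and its 95% interval ran from -0.24 to 0.18. Ccp84Ag had the lowest signal, with 4.26 ± 0.15 in the mutant and 4.14 ± 0.04 in the control, within the low range. Edg84A adjoins them in gene order.

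None of the 3 Edg genes was called in limma, where 24.7% of all genes were called, with 1 higher and 1 lower at an unadjusted p under 0.05. Edg91, which encodes a glycine-rich cuticle protein, had the highest signal. It read 7.61, 7.83 and 7.78 on the mutant arrays, against 7.51, 7.30 and 7.49 on the control arrays. The groups did not overlap, and the difference of 0.31 ± 0.10 missed the threshold (adjusted p = 0.0757), passing it with array weights (0.0362). Edg84A read 5.24, 5.27 and 5.17 on the mutant arrays and 5.41, 5.42 and 5.43 on the control arrays. Its groups did not overlap either, but all 6 values lay in the low range and the difference of -0.19 ± 0.08 was not called (adjusted p = 0.156). Edg78E, a cuticle gene of the prepupa, had the lowest signal, with 4.01 to 4.14 in the mutant and 3.85 to 4.09 in the control, all in the low range. The gene of Ftz-f1 read 6.59 ± 0.22 in mutants and 6.25 ± 0.14 in controls and was not called (adjusted p = 0.117).

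Pcp, the gene of a pupal cuticle protein, had the highest signal of all 39 probe sets. It read 11.33, 11.04 and 11.72 on the mutant arrays, against 11.24, 11.14 and 10.36 on the control arrays. The groups overlapped, and the third control array was the lowest by more than 0.6 unit of log2. The difference of 0.45 ± 0.25 was not called (adjusted p = 0.272), with a 95% interval from -0.12 to 1.01. Pcp lies within the purine synthesis gene Gart in RefSeq, and is known to sit in an intron of it, on the opposite strand. Gart, measured by its own probe set, fell by 0.72 on the log2 scale (10.98 in the mutant and 11.71 in the control, adjusted p = 0.00154). Acp65Aa, the gene of an adult cuticle protein beside Lcp65Aa, read 7.02 ± 0.08 in mutants and 6.88 ± 0.18 in controls (adjusted p = 0.457).

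The genes around the called members differed between them. Gene order was taken from RefSeq, and the 5 nearest measured genes on each side were examined after the values of the called members had been seen. Around TwdlW on 3R, 6 of 10 neighbours rose and 1, Mur89F, fell by 0.61 on the log2 scale, where 24.7% of all genes were called. The 5 genes before it, CG31266 (1.01), CG31267 (2.29), CG5246 (5.73), CG5255 (1.27) and CG5265 (0.70), were all called higher, as was m-cup, the gene just after it. For CG31266 and CG31267 all 3 control arrays lay in the low range. With those arrays set no lower than the end of their low range, the group means differed by 0.62 and 1.82. The m-cup probe set read 10.81, 11.72 and 11.22 on the mutant arrays, against 9.40, 9.73 and 9.69 on the control arrays, a change of 1.64 ± 0.21 (adjusted p = 0.00084). As for TwdlW, the second mutant array was the highest. CG5246 averaged 12.69 in the mutant and 6.96 in the control (adjusted p = 4.58e-07).

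Around Lcp65Ac and around TwdlD, none of the 10 neighbours was called in limma at the adjusted threshold, where 24.7% of all genes were called. At an unadjusted p under 0.05, 1 was called around Lcp65Ac and 0 around TwdlD. Many of these neighbours lay in the low range on all 6 arrays, where 5.31% of all genes were called. Around Lcp65Ac these were Lcp65Af, Lcp65Ae, Cpr65Aw, Lcp65Ad, CG13297, Cpr65Az and Prdm13, and around TwdlD they were TwdlN, TwdlR, TwdlS and TwdlQ. Both members sit among other cuticle genes, and their neighbours' changes ran from -0.22 (TwdlQ) to 0.30 (amon). Around Lcp9, 3 of 10 neighbours fell, with the largest change in CG3589 (-1.92), and 1, Reg-5, rose by 0.54, where 24.7% of all genes were called. The genes next to Lcp9 on each side, Eps-15 and CG3594, were not called (-0.28 and -0.19).

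**Figure D4:**
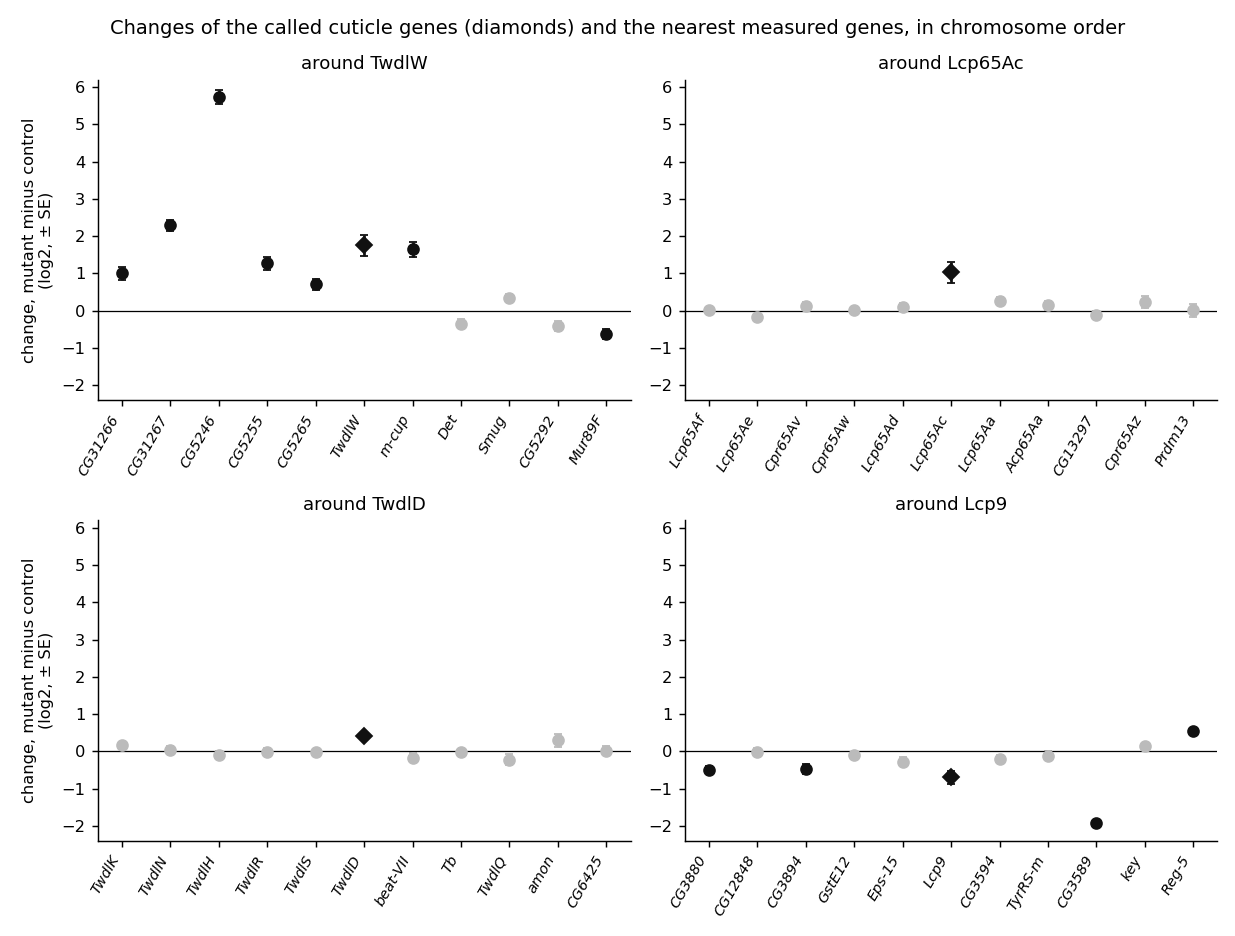
Changes (mutant minus control, log2, with SE) of the 4 called cuticle genes (diamonds) and of the 5 nearest measured genes on each side, in chromosome order and not to scale along the chromosome. Black marks genes with an adjusted p under 0.05 and grey the others. Black points above 0 run from CG31266 to m-cup around TwdlW, while Lcp65Ac and TwdlD stand alone among grey points.

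Other genes of cuticle formation were read beside these members, as counts with no test of a list, where 24.7% of all genes were called. Of 66 Cpr genes, the large family that carries the Rebers-Riddiford domain, 9 rose and 6 fell (22.7%), led by Cpr65Ec (1.32 ± 0.15), Cpr56F (-1.28 ± 0.13) and Cpr11B (1.28 ± 0.18), the last with all 3 control arrays in the low range. Like the 39 members, the Cpr genes had a median change near 0 (0.00), and 31 of them lay in the low range on all arrays. Of 18 genes for chitin synthesis and assembly, 2 rose and 1 fell (16.7%). These were Gasp, which encodes a chitin-binding protein (0.62 ± 0.11), serp, which encodes a chitin deacetylase (0.39 ± 0.10), and the chitin-binding gene obst-B (-0.36 ± 0.10). The chitin synthase gene of the epidermis, kkv, read 9.74 ± 0.04 in mutants and 9.67 ± 0.19 in controls (adjusted p = 0.713, named after its value was seen).

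Of 12 genes for tanning and pigment, 2 rose and 3 fell (41.7%). The acetyltransferase gene speck fell by 1.73 on the log2 scale, with 10.73 ± 0.20 in the mutant and 12.46 ± 0.34 in the control (adjusted p = 0.000219). The laccase gene stw, whose enzyme cross-links cuticle proteins, rose by 0.54 ± 0.13, and the gene e, for the enzyme that joins dopamine to beta-alanine, fell by 0.47 on the log2 scale. Like Lcp9, speck and stw lie on 2R. A list of 16 genes of the hormone response, called regulators below, also held shd and dib, which encode enzymes that make the steroid hormone. Of these 16, 1 rose and 5 fell (37.5%), with the largest changes in shd (-1.95), usp and Sox14, the mutated gene itself. Those that fell were thus the enzyme genes shd and dib (-0.56), the mutated gene, usp and Hr78 (-0.79). The epidermal transcription factor gene grh read 10.30 ± 0.06 in mutants and 10.31 ± 0.06 in controls (adjusted p = 0.945, named after its value was seen).

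**Figure D5:**
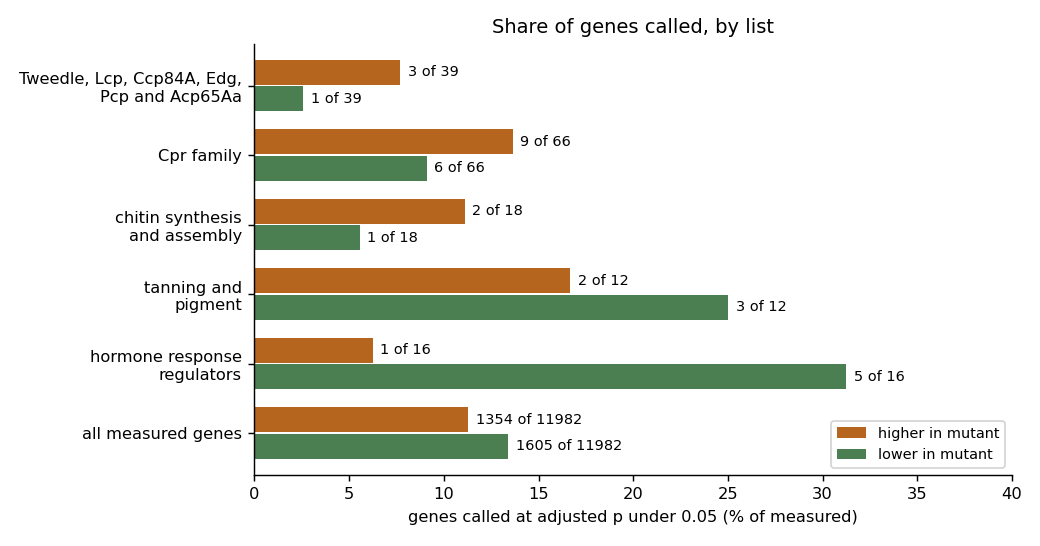
Share of measured genes called at an adjusted p under 0.05 (horizontal axis, %), higher (brown) or lower (green) in the mutant, for the 39 cuticle genes, 4 lists of related genes and all 11982 genes; the numbers beside the bars are counts. The 39 members have 3 and 1 called, below the shares of all genes, 11.3% and 13.4%. The shares were not tested against each other, and 19 of the 39 lay in the low range on all arrays.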

How the data were processed

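Whole prepupae of 2 genotypes were profiled on Affymetrix Drosophila Genome 2.0 arrays, 3 per genotype. The deposited table holds log2 signals that the authors computed by RMA (Affymetrix Expression Console, version 1.1), per the submitters' processing notes. RMA removes background, brings the arrays to a common distribution and combines the probes of a set, so values are relative. For the array design, the sources used here name no genome build. Array medians were 6.97 to 7.06, and correlations were 0.993 to 0.996 within a genotype and at most 0.976 between genotypes. The number of arrays limits the precision.

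After 183 control probe sets were left out, 18769 probe sets were fitted with limma 3.58.1 (lmFit, eBayes; R 4.3.3), with genotype as the only term, and adjusted together. The fit was tested on simulated data. Members and lists were chosen with earlier results of these data known. Text names every called member, the brightest and dimmest probe set of each family, and the 3 called genes of largest change in each other list. The low range leaves out 2 control probe sets that differed over 2-fold between genotypes. It and the 5-gene windows were set after seeing the data. Symbols of all 39 members matched RefSeq (Release 6 plus ISO1 MT), used for names, chromosome arms and gene order. Alternatives tried: the replicate number as a block, quantile normalisation, median centring, array weights, a trended robust variance, leaving out each array or the dimmest 40% of probe sets, averaging the probe sets of a gene, using only probe sets designed for 1 gene, and a threshold of 0.01.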

Additional observations from a re-analysis of the deposited data

How the results depend on the processing

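TwdlW was called higher under all 14 alternative fits, Lcp65Ac under 9 of 14, Lcp9 under 10 of 14, and TwdlD under 8 of the 13 that measured it; their directions were the same in every one of these. With each array left out in turn, 1 to 2 of the 39 members were called higher and 0 to 1 lower, where 17.2% to 22.7% of all genes were called. At a threshold of 0.01, 1 member was higher (TwdlW) and 0 lower; median centring, which shifted the median of all genes to -0.07 from -0.03, gave 2 lower. The replicate numbers are not stated to pair arrays, and the deviations of same-numbered arrays correlated at 0.17, -0.10 and -0.02. With the replicate block the same 4 members were called, and 22.5% of all genes.

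In the lists of related genes, leaving out arrays gave 6 to 9 Cpr genes higher and 3 to 5 lower, 1 to 3 chitin genes higher and 0 to 1 lower, 0 to 2 tanning genes higher and 2 to 3 lower, and 0 to 2 regulators higher and 4 to 5 lower. Without the dimmest 40% of probe sets, 3 Cpr genes were lower and their median change was 0.18. The replicate block gave 0 chitin genes lower, 1 tanning gene higher and 2 regulators higher. Median centring, averaging over probe sets and using only probe sets designed for 1 gene each gave 1 tanning gene higher. A trended robust variance and array weights each gave 2 regulators higher, and probe sets designed for 1 gene gave 3 lower. The causes were not tested. Signal near the arrays' low range limits what can be said of 19 of the 39 members.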
